A study of Mus musculus with 23 samples.

Results

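The genes described here carry dietary fat through the enterocyte, the absorptive cell of the small intestine, from uptake at the brush border to export in chylomicrons. They were taken by name from a list of 10 (Apoa1, Apoa4, Apob, Apoc3, Mttp, Fabp1, Fabp2, Cd36, Dgat1 and Mogat2). All 10 were found among the 17842 genes of the table that carry an NCBI Gene number, and all 10 passed the filter on low values that left 11337 genes for testing. RNA of the small intestine of male ICR mice was sequenced in 23 libraries. All mice, controls included, had received a single injection of busulfan, an alkylating anticancer drug that damages the gut, at 40 mg/kg and 3 weeks of age. From the next day they were gavaged for 1 week with saline (Sa) or with luminal contents of the small intestine of donor mice, a fecal microbiota transplantation (FMT). Donors had been dosed with vehicle (Con-FMT), or with alginate oligosaccharides (AOS, short sugar chains made from brown algae) at 10 mg/kg (A10-FMT) or 100 mg/kg (A100-FMT), and the contents of each donor group were pooled. The study's methods give 1 schedule, with sampling at 5 weeks of age. By a code in the sample names, 11 libraries belong together and the other 12 do too. They are named set 1 and set 2 in this text. What the sets are is not explained, and the schedule is not tied to either of them. Each of the 8 groups had 3 libraries except Sa of set 1, which had 2.

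Long-chain fatty acids and monoacylglycerol released from dietary fat enter the enterocyte partly through carriers such as CD36 and are held in the cytosol by the fatty acid-binding proteins FABP1 and FABP2. MOGAT2 and DGAT1 join them again into triglyceride in the endoplasmic reticulum. The microsomal triglyceride transfer protein, the product of Mttp, loads triglyceride onto apolipoprotein B, and the growing particle takes up apolipoproteins A-I, A-IV and C-III before it is secreted into the lymph. In mice, most of these genes are also active in the liver.

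The values are FPKM, a count of fragments scaled to transcript length and library size, so levels may be compared between genes. Vil1, the villin gene of the brush border, lay between 592 and 914 FPKM in the 23 libraries. Fabp6, the ileal bile acid-binding protein, lay between 389 and 1215 FPKM, and Lct, the lactase gene of more proximal segments, between 44 and 123 FPKM. The markers of either segment were uneven. Means of the distal list ran from 0.842 FPKM (Fgf15) to 780 FPKM (Fabp6), and of the proximal list from 0.557 FPKM (Cybrd1) to 96.5 FPKM (Adh6a). Of the markers of other cell types in the table, 5 of 8 of smooth muscle, 3 of 5 of adipocytes, 5 of 6 of endothelium, 7 of 9 of macrophages and 7 of 8 of hepatocytes stayed under 1 FPKM in every library. Among these, Acta2 reached 0.09 FPKM, Adipoq 0.04 FPKM, Cdh5 0.02 FPKM, Adgre1 0.05 FPKM and Alb 0.3 FPKM. The others were Mylk (mean 66.9 FPKM), Smtn (7.66 FPKM) and Tagln (1.24 FPKM) of the smooth muscle list, Cidec (14 FPKM) and Pck1 (5.81 FPKM) of the adipocyte list, Lyve1 (2.72 FPKM) of the endothelial list, Cd68 and Lyz2 of the macrophage list and Ttr of the hepatocyte list, the last 3 with means under 1 FPKM. The library called Sa of set 1 replicate 3 stood apart. Its deviation from the median library followed the GC content of the transcripts with a Spearman's rho of 0.69 across genes, against -0.221 to 0.22 in the other libraries. The title and the description of this library name different columns of the table. The title was followed, and the comparisons with Sa of set 1 are also given with the column of the description (rho -0.0867) and without this library. In bulk samples like these, fewer cells of a type and less RNA per cell cannot be told apart. The labels number the libraries within a group and say nothing of separate animals, so p-values measure the spread between these libraries only.

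Most of the genes ranked among the most abundant transcripts of the tissue. Apoa1, the main protein of high-density lipoprotein, had a mean of 2341 FPKM over the 23 libraries and was number 14 among the 19215 entries of the table. Fabp2 (1531 FPKM, number 31), Fabp1 (1152 FPKM, number 59) and Apoa4 (978 FPKM, number 85) followed. Mttp (434 FPKM), Dgat1 (316 FPKM), Mogat2 (227 FPKM), Apoc3 (182 FPKM) and Apob (107 FPKM) were at intermediate levels. The exception was Cd36, with a mean of 5.53 FPKM and a range of 2.87 to 9.14 FPKM. The 10 genes together took 1.71% to 2.12% of all FPKM in the A10-FMT libraries of set 1, and 0.667% to 0.927% in the A10-FMT libraries of set 2. In the other 6 groups their share lay between 0.764% and 1.61%.

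**Figure D1:**
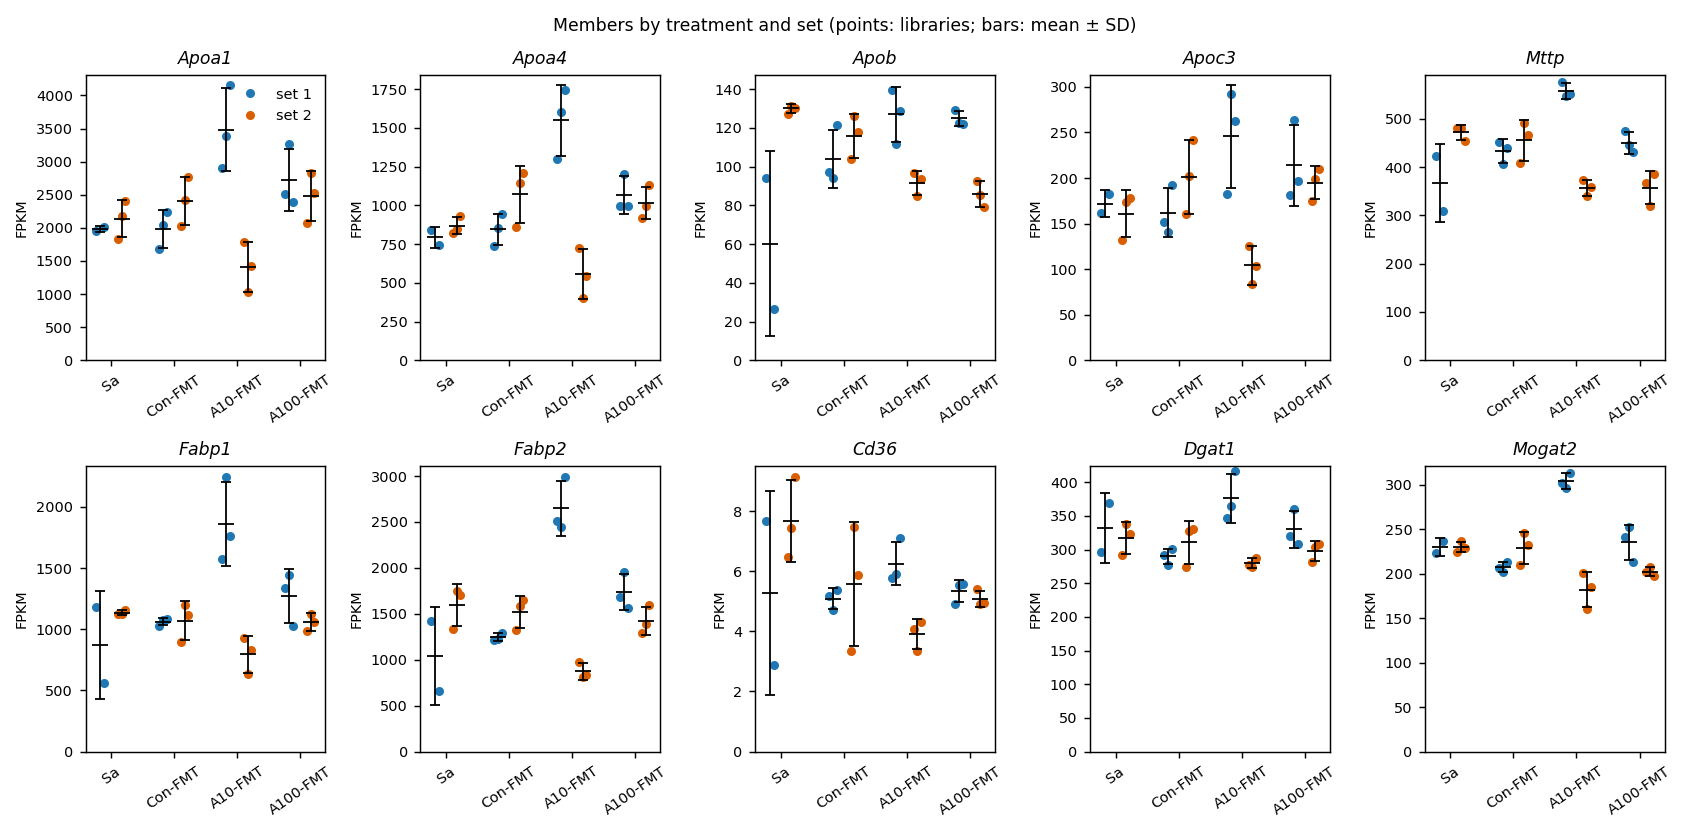
FPKM (y axis) of the 10 genes by treatment (x axis) and set (color), 1 point per library, with bars at the group mean ± SD. A10-FMT of set 1 has the highest mean for 8 of the 10 genes and A10-FMT of set 2 the lowest mean for 9.

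The genes lie on 8 places of the genome, since 3 of the apolipoprotein genes are neighbours. On mouse chromosome 9 (GRCm38), Apoa1 (46228630 to 46230469), Apoc3 (46233050 to 46235636) and Apoa4 (46240844 to 46243458) follow each other, with Apoa5 as the next gene (46268608 to 46271921). The others are Apob on chromosome 12 (7977629 to 8016839), Mttp (138089855 to 138143418) and Fabp2 (122895072 to 122899506) on chromosome 3, Fabp1 on chromosome 6 (71199879 to 71205034), Cd36 on chromosome 5 (17781690 to 17888959), Dgat1 on chromosome 15 (76502012 to 76512021) and Mogat2 on chromosome 7 (99219084 to 99238611). The sequences before the start sites of the 4 most abundant members are given below, because these genes carry most of the FPKM described here. They are the 250 bases upstream of the RefSeq start site on GRCm38, 5′ to 3′, at chr3:122894822-122895071 for Fabp2, chr6:71199629-71199878 for Fabp1, chr9:46228380-46228629 for Apoa1 and chr9:46240594-46240843 for Apoa4, all on the plus strand. Capitals mark the letters TATAAA, the core of a TATA box, and CAAAGNNCA, a core found in many sites for HNF4A, a transcription factor of liver and gut, on either strand.
Fabp2: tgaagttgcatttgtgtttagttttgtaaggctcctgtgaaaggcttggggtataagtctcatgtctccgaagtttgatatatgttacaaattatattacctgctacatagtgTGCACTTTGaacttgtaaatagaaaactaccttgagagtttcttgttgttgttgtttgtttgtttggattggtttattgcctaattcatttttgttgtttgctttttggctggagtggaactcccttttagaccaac
Fabp1: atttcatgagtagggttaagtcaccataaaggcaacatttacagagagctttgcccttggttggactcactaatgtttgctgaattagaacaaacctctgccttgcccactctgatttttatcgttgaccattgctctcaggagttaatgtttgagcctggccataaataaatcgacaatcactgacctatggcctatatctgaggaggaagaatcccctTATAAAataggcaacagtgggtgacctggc
Apoa1: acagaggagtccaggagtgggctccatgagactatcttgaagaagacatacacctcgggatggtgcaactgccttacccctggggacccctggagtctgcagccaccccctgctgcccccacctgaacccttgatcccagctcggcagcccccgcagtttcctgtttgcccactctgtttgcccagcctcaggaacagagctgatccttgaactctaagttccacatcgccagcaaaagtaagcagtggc
Apoa4: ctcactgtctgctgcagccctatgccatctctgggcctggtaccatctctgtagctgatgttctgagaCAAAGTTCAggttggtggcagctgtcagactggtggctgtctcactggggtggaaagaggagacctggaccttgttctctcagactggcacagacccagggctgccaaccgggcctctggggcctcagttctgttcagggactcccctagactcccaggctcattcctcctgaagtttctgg
The RefSeq promoter table, with windows of 300 bases that end 50 bases after the start, held 7 of the 10 genes and not Apoc3, Dgat1 and Mogat2. CAAAGNNCA was found in 3 of the 7, at position -182 from the start of Apoa4 (CAAAGTTCA), at -137 of Fabp2 on the minus strand (read as TGCACTTTG on the plus strand) and at -103 of Apob on the minus strand, and in 6.36% of all 32851 promoters of the table. TATAAA was found in 2 of the 7, at -30 of Fabp1 and at -60 of Apob, and in 13.6% of all promoters. AGATAA, the core of sites for GATA factors, was found in 0 of the 7 and in 11.2% of all promoters. The motifs do not overlap each other in these windows.

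To compare the microbiota of AOS-dosed donors with that of control donors, A10-FMT was set against Con-FMT within each set, with no Sa library in the comparison. In set 1, 7 of the 10 genes rose in A10-FMT and 0 fell (limma on log2(FPKM + 1), adjusted p under 0.05). Over all genes tested, 16.7% passed in this comparison, and 31.2% of those were higher in A10-FMT, or 55.3% with trimmed-mean scaling. The median difference of the 10 genes was 0.57 on the log2 scale, against -0.08 over all genes. In set 2, all 10 differences had the opposite sign with a median of -0.40, and 2 genes, Apoa4 and Apoc3, fell in A10-FMT, where 0.379% of all genes passed. At an unadjusted p under 0.05 the counts were 8 of 10 in set 1, against 31.8% of all genes, and 6 of 10 in set 2, against 11.9%. The signs of the 10 differences were the same in each set under every alternative computed, scaling included.

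**Figure D2:**
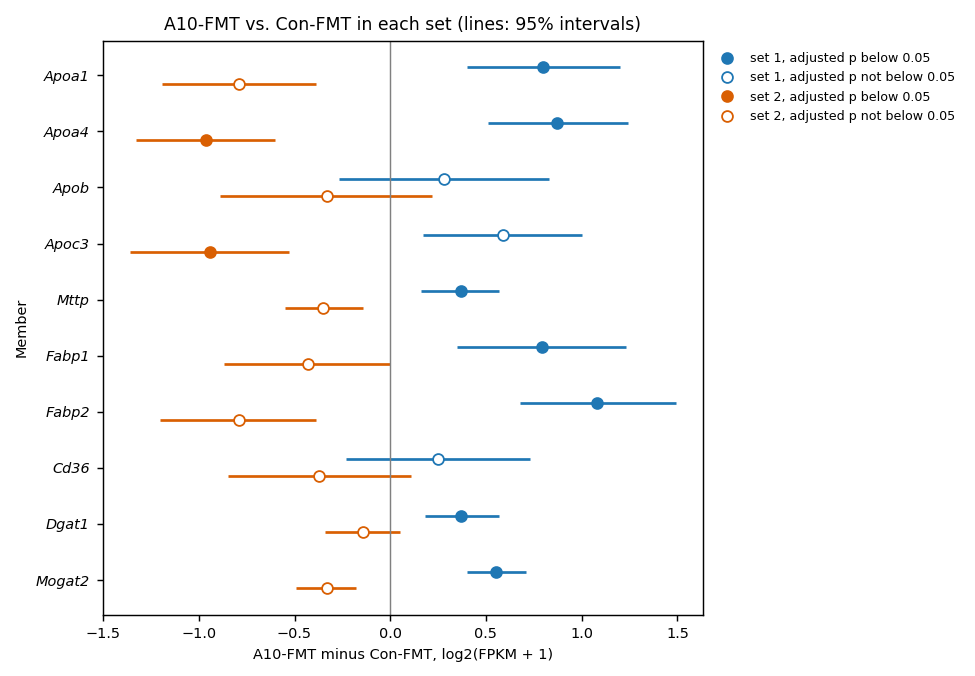
Log2 difference of A10-FMT and Con-FMT (x axis) for each of the 10 genes in set 1 and in set 2 (color), with lines for the 95% confidence intervals of limma and filled points where the adjusted p is under 0.05. The set 1 values lie between 0.25 and 1.08 and the set 2 values between -0.96 and -0.14.

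Fabp2, the intestinal fatty acid-binding protein gene, had the largest difference of the 10 in set 1. Its levels in A10-FMT of set 1 were 2508, 2446 and 2987 FPKM, and in Con-FMT 1214, 1224 and 1296 FPKM. Every A10-FMT library was above every Con-FMT library, with a ratio of the means of 2.13 and a log2 difference of 1.08 ± 0.19 (SE, adjusted p = 0.00159). In set 2 the order was turned, with 979, 809 and 835 FPKM in A10-FMT against 1321, 1584 and 1647 FPKM in Con-FMT, and this difference of -0.79 ± 0.19 (SE) missed the threshold (adjusted p = 0.0706). Fabp1, the liver-type protein of the same family, was at 1575, 2245 and 1761 FPKM in A10-FMT of set 1 and at 1026, 1077 and 1082 FPKM in Con-FMT. It rose by 0.79 ± 0.21 on the log2 scale (adjusted p = 0.0159), without overlap between the groups. In set 2, A10-FMT libraries had 929, 632 and 827 FPKM and Con-FMT libraries 895, 1199 and 1120.04 FPKM, so the groups overlapped (log2 difference -0.43 ± 0.21, adjusted p = 0.427).

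The apolipoprotein genes on chromosome 9 showed the same turn between the sets. Apoa4, whose protein coats nascent chylomicrons, was at 1298, 1604 and 1743 FPKM in A10-FMT of set 1 and at 736, 853 and 942 FPKM in Con-FMT. It rose by 0.87 ± 0.17 on the log2 scale (adjusted p = 0.00316), a ratio of the means of 1.84. In set 2 it was at 724, 405 and 547 FPKM in A10-FMT and at 862, 1144 and 1208 FPKM in Con-FMT, a fall of -0.96 ± 0.17 (adjusted p = 0.0315), with the Con-FMT mean 1.92 times that of A10-FMT. The groups did not overlap in either set. Apoa1 was at 2911, 3384 and 4159 FPKM in A10-FMT of set 1 against 1679, 2042 and 2244 FPKM in Con-FMT, a rise of 0.80 ± 0.19 (adjusted p = 0.00893). In set 2 it was at 1780.2, 1029.6 and 1421 FPKM against 2031, 2414 and 2764 FPKM, again with no overlap, though the test missed the threshold (-0.79 ± 0.19, adjusted p = 0.0694). Apoc3, an inhibitor of lipoprotein lipase, was the other gene that fell in set 2, from 161, 202 and 241 FPKM in Con-FMT to 125, 83.7 and 103 FPKM in A10-FMT (-0.94 ± 0.20, adjusted p = 0.0435). Its set 1 levels of 183, 292 and 262 FPKM in A10-FMT and 152, 141 and 193 FPKM in Con-FMT overlapped, and the difference of 0.59 ± 0.20 lay at the threshold (adjusted p = 0.0505). The level of Apoa1 stayed in nearly the same proportion to that of Apoa4, at 2.11 to 2.84 times in every one of the 23 libraries. The calls of set 2 were not stable. The counts that follow are of the 10 genes only, without the share of all genes that passed in the same fits. With only the groups compared in the fit, without a filter, with a replicate block, or without replicate 2 or 3 of Con-FMT or of A10-FMT in set 2, 0 of the 10 genes passed in limma. Without replicate 1 of either group 4 passed, without either Sa library of set 1 6 passed, and with array quality weights 8 did.

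The genes for the assembly of the particle differed less. Mttp was at 577, 546 and 550.48 FPKM in A10-FMT of set 1 and at 453, 406 and 440.31 FPKM in Con-FMT, and it rose by 0.37 ± 0.10 (adjusted p = 0.0155) with no overlap. In set 2 it was at 373, 340.28 and 358 FPKM in A10-FMT against 408, 491 and 467 FPKM, also with no overlap, and the test missed the threshold (-0.35 ± 0.10, adjusted p = 0.131). Apob, which gives the chylomicron its structural protein, did not pass in either set. Its levels in A10-FMT of set 1 were 139, 111 and 129 FPKM against 97.2, 94.2 and 121 FPKM in Con-FMT (0.28 ± 0.26, adjusted p = 0.497). In set 2 they were 96.8, 84.7 and 93.6 FPKM against 104, 126 and 118 FPKM (-0.33 ± 0.26, adjusted p = 0.669).

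Of the enzymes of triglyceride resynthesis, Mogat2, which acylates monoacylglycerol, had the smallest adjusted p of the 10 genes in set 1. It was at 302, 296 and 314 FPKM in A10-FMT and at 206, 202 and 213 FPKM in Con-FMT, a rise of 0.55 ± 0.07 (adjusted p = 0.000591). In set 2 it was at 200.22, 161 and 185 FPKM against 210.15, 245 and 233 FPKM (-0.33 ± 0.07, adjusted p = 0.0575). The libraries of Mogat2 lay close together within each group and did not overlap between A10-FMT and Con-FMT in either set. Dgat1, which adds the last fatty acid, was at 346, 365 and 417 FPKM in A10-FMT of set 1 and at 292, 278 and 300.28 FPKM in Con-FMT, a rise of 0.37 ± 0.09 (adjusted p = 0.0121). In set 2 its groups overlapped, with 278, 274 and 288 FPKM against 274, 328 and 330.07 FPKM (-0.14 ± 0.09, adjusted p = 0.573). Cd36, the fatty acid translocase and the least abundant of the 10, was at 5.77, 5.9 and 7.09 FPKM in A10-FMT of set 1 and at 5.17, 4.72 and 5.37 FPKM in Con-FMT. Its difference of 0.25 had a 95% confidence interval of -0.23 to 0.73 (adjusted p = 0.488). In set 2 its Con-FMT libraries ran from 3.36 to 7.46 FPKM and enclosed those of A10-FMT, which ran from 3.36 to 4.31 FPKM.

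Counted by separation of the libraries, 8 of the 10 genes had every A10-FMT library above every Con-FMT library in set 1, where 12.2% of all genes tested did. In set 2, 7 of the 10 had every A10-FMT library below every Con-FMT library, where 8.3% of all genes did. With quantile normalization Apoa1 (0.56, adjusted p = 0.06) and Mttp (0.34, adjusted p = 0.0606) did not pass in set 1, which left 5 of the 10. Leaving out 1 library of these groups in set 1 ended the call of Apoa1, Mttp, Fabp1 or Dgat1 in 1 or 2 cases each. Without Con-FMT replicate 1 of set 1 Apoa1 had an adjusted p of 0.0524 and Fabp1 of 0.0568, and without Con-FMT replicate 2 Mttp had 0.0694 and Dgat1 0.0516. Without A10-FMT replicate 2 Fabp1 had 0.0767, and without A10-FMT replicate 3 Apoa1 had 0.0538 and Dgat1 0.0729. Apoa4, Fabp2 and Mogat2 passed in set 1 under all 34 alternatives.

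An interaction term tested whether the sets differed. The A10-FMT vs. Con-FMT difference was lower in set 2 than in set 1 for 8 of the 10 genes (adjusted p under 0.05) and higher for 0, where 20.8% of all genes passed. Of all those that passed, 67.7% were higher in set 2, or 41.5% with trimmed-mean scaling. The interaction was largest for Fabp2 at -1.88 ± 0.27 on the log2 scale (adjusted p = 0.000327) and Apoa4 at -1.84 ± 0.24 (adjusted p = 0.00019). Apoa1 (-1.60), Apoc3 (-1.53), Fabp1 (-1.23), Mogat2 (-0.89), Mttp (-0.71) and Dgat1 (-0.52) passed as well. Apob (-0.61 ± 0.37, adjusted p = 0.258) and Cd36 (-0.62 ± 0.33, adjusted p = 0.187) did not. Between 8 and 10 of the 10 genes passed under each of the 11 alternatives that kept all libraries. Leaving out 1 library outside Sa of set 1 gave 8 to 9. The shares of all genes that passed in these fits are not given.

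Cell type markers differed between the same groups, and their part in these results was not tested. The summed level of 12 enterocyte markers was 6329 to 7277 FPKM in A10-FMT of set 1 and 4872 to 5406 FPKM in Con-FMT, and 4011 to 4471 FPKM in A10-FMT of set 2 and 4909 to 5830 FPKM in Con-FMT. Of these 12, 8 rose and 0 fell in set 1, against 5.2% and 11.5% of all genes tested. In set 2, 0 rose and 2 fell (Anpep and Cdhr2), against 0.37% of all genes that fell. By the interaction, 10 had a lower difference in set 2, against 6.7% of all genes. The 10 markers of proliferating crypt cells ran the other way. Their sum was 631 to 685 FPKM in A10-FMT of set 1 against 835 to 909 FPKM in Con-FMT, and 892 to 983 FPKM against 760 to 891 FPKM in set 2. In set 1, 7 of the 10 fell (2 with trimmed-mean scaling), against 11.5% of all genes in the fit reported. In set 2, 0 passed in limma, and 0 had an unadjusted p under 0.05, against 11.9% of all genes. The 8 markers of the proximal small intestine summed to 418 to 454 FPKM against 264 to 319 FPKM in set 1 and to 244 to 349 FPKM against 296 to 427 FPKM in set 2. The 9 distal markers summed to 1538 to 1939 FPKM against 1053 to 1249 FPKM, and to 782 to 1232 FPKM against 999 to 1517 FPKM. The proximal and the distal list thus had higher sums in the same group of set 1. The 7 goblet cell markers summed to 8453 to 9759 FPKM against 7334 to 9176 FPKM in set 1 and to 6804 to 7774 FPKM against 8269 to 8811 FPKM in set 2. The 5 adipocyte markers in the table summed to 27.3 to 45.8 FPKM against 16.5 to 19.5 FPKM and to 11.8 to 13.7 FPKM against 15.2 to 22 FPKM, with Adipoq at 0 in 22 of the 23 libraries. Nearly all of this sum was Cidec (mean 14 FPKM) and Pck1 (5.81 FPKM), while Plin1 and Fabp4 had means of 0.00348 and 0.00652 FPKM. The 6 erythroid markers reached 40.4 FPKM in Con-FMT of set 2, where they ran from 4.53 FPKM, and 12.7 FPKM at most in the other groups.

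**Figure D3:**
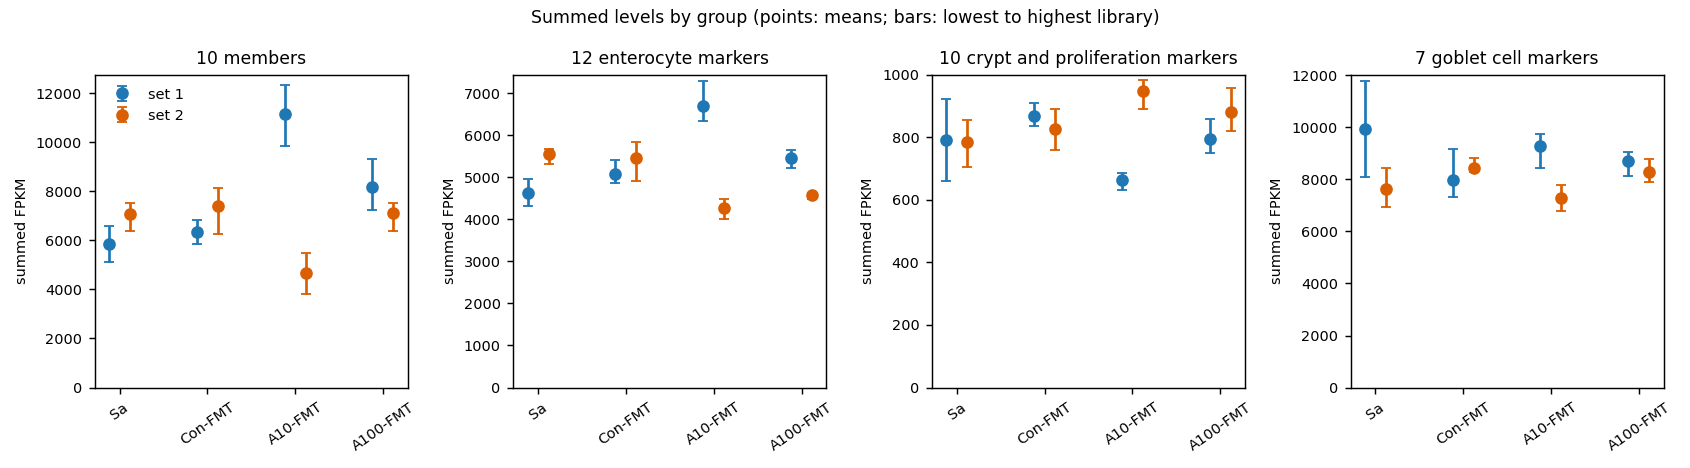
Summed FPKM (y axis) of the 10 genes, 12 enterocyte markers, 10 crypt proliferation markers and 7 goblet cell markers by treatment (x axis) and set (color), with points at the mean and bars from the lowest to the highest library. A10-FMT of set 1 has the highest sums of the 10 genes and of the enterocyte markers and A10-FMT of set 2 the lowest, and the crypt markers run the other way.

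Within each set, A10-FMT had the highest mean of the 4 groups for all 10 genes in set 1 and the lowest for 9 of 10 in set 2, where Apob was lowest in A100-FMT. Over the 8 groups, the libraries of A10-FMT of set 1 lay above those of all 7 other groups for 5 genes (Apoa4, Mttp, Fabp1, Fabp2 and Mogat2), and those of A10-FMT of set 2 lay below all others for 2 (Apoa4 and Apoc3). Elsewhere the order said little, since the libraries of 61 of the 70 pairs of neighbouring groups overlapped. The order of means and these separations were counted for the 10 genes only, so no share of all genes stands beside them. Apob and Cd36 had their highest mean in Sa of set 2, at 130 ± 2.16 FPKM and 7.68 ± 1.36 FPKM (SD, n = 3), and Apob its lowest in Sa of set 1.

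A100-FMT came from donors given the higher dose of AOS. In set 1 all 10 genes had a higher mean in A100-FMT than in Con-FMT, with a median difference of 0.25, but 0 passed in limma, where 0.406% of all genes did. At an unadjusted p under 0.05 there were 3, against 11.3% of all genes. The largest of these differences were those of Fabp2 (0.47 ± 0.19, adjusted p = 0.354) and Apoa1 (0.45 ± 0.19, adjusted p = 0.379). Every A100-FMT library was above every Con-FMT library for 6 of the 10 genes, against 11.5% of all genes. They were Apoa1, Apoa4, Apob, Fabp2, Dgat1 and Mogat2. Set against A10-FMT, 1 of the 10 genes was lower in A100-FMT of set 1, where 5.66% of all genes passed. This was Mogat2, at 241, 252 and 213 FPKM in A100-FMT (-0.37 ± 0.07, adjusted p = 0.0115), below every A10-FMT library. The call was lost without A100-FMT replicate 3 of set 1 and with only the groups compared in the fit. The shares of all genes that passed in these alternative fits are not given. In all, 6 of the 10 genes were below every A10-FMT library, where 8.37% of all genes were. Besides Mogat2 these were Fabp2 (-0.61 ± 0.19, adjusted p = 0.0708), Apoa4 (-0.54 ± 0.17, adjusted p = 0.0759), Fabp1, Mttp and Cd36, which missed the threshold.

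In set 2, A100-FMT stood apart from A10-FMT in the other direction. Apoa4 was at 921, 993 and 1129 FPKM in A100-FMT, above the 405 to 724 FPKM of A10-FMT. In all, 6 of the 10 genes were above every A10-FMT library, where 9.53% of all genes were. The others were Apoa1, Apoc3 and Fabp2, with ratios of the means of 1.76, 1.87 and 1.63, and Fabp1 and Cd36. The means of Mttp were both 357 FPKM. By limma 0 of the 10 genes passed this comparison, where 0.00882% of all genes did, and 4 had an unadjusted p under 0.05, against 7.13% of all genes. Against Con-FMT of set 2, 0 of the 10 genes passed in limma, as did 0 (0%) of all genes, and 2 of the 10 were under 0.05 unadjusted, against 11.2% of all genes. These were Mttp (-0.35 ± 0.10, adjusted p = 0.187) and Mogat2 (-0.18 ± 0.07, adjusted p = 0.372). They and Apob lay below every Con-FMT library, where 6.49% of all genes did. The A100-FMT vs. A10-FMT difference was higher in set 2 than in set 1 for 5 of the 10 genes, where 3.5% of all genes passed. They were Apoa4 (1.43 ± 0.24, adjusted p = 0.00686), Fabp2 (1.31, adjusted p = 0.017), Apoa1 (1.19, adjusted p = 0.022), Apoc3 (1.10, adjusted p = 0.0363) and Mogat2 (0.52, adjusted p = 0.0143). Apoa4 alone passed without A100-FMT replicate 3 of set 1. Without A10-FMT replicate 2 or A100-FMT replicate 3 of set 2 the calls were Apoa4 and Mogat2, and without A10-FMT replicate 3 or A100-FMT replicate 1 of set 1, or A100-FMT replicate 2 of set 2, those of Apoa1 and Apoc3 were lost. Without A10-FMT replicate 2 of set 1 or replicate 3 of set 2 that of Apoc3 was lost. The shares of all genes that passed in these alternative fits are not given. For A100-FMT vs. Con-FMT, the difference between the sets passed for 0 of the 10 in limma, and for 0% of all genes. At an unadjusted p under 0.05 it did for 2, against 13.1% of all genes.

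The comparisons with saline ask what any transplantation did in busulfan-treated mice. In set 1 they rest on 2 Sa libraries that differed widely for some of these genes. Apob was at 94.1 FPKM in Sa replicate 1 and at 26.4 FPKM in replicate 3, and at 75.5 FPKM in the column of the description. Fabp2 was at 1419 and 661 FPKM, and at 970.4 FPKM in the column of the description. Fabp1 was at 1181 and 559 FPKM, and at 924 FPKM in that column. Apoa1 (1947 and 2009 FPKM), Apoa4 (843 and 746 FPKM) and Mogat2 (223 and 237 FPKM) differed little between the same 2 libraries. The longest transcripts of Apob, Fabp2, Fabp1, Mttp and Cd36 had a GC content of 38.4% to 45.9%. Those of Apoa1, Apoa4, Apoc3, Dgat1 and Mogat2 had 55.6% to 57.6%. Apart from the adjusted fits given below, the part of GC content in these comparisons was not tested.

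Against Sa of set 1, A10-FMT had higher levels of 7 genes, where 32% of all genes passed. The differences were 1.44 for Fabp2 (adjusted p = 0.000584), 1.32 for Apob (adjusted p = 0.00398), 1.18 for Fabp1 (adjusted p = 0.00207), 0.95 for Apoa4 (adjusted p = 0.00227), 0.80 for Apoa1 (adjusted p = 0.0101), 0.62 for Mttp (adjusted p = 0.00102) and 0.40 for Mogat2 (adjusted p = 0.00262). With the column of the description 9 genes passed, and without Sa replicate 3 only Apoa4 (0.87), Fabp2 (0.89), Mttp (0.40) and Mogat2 (0.44) did. A100-FMT had higher levels of 4 genes, where 35.2% of all genes passed. These were Apob (1.30, adjusted p = 0.00814), Fabp2 (0.84, adjusted p = 0.0124), Fabp1 (0.63, adjusted p = 0.0457) and Mttp (0.31, adjusted p = 0.0343). With the column of the description they were Apoa1 (0.80, adjusted p = 0.044), Apob (0.56, adjusted p = 0.00834) and Fabp2 (0.56, adjusted p = 0.0359), and without Sa replicate 3 there were 0. With the adjustment for GC content and length, Mttp (0.10, adjusted p = 0.377) and Fabp1 (0.66, adjusted p = 0.0514) did not pass, and Apob, Fabp2, Apoa1, Apoa4 and Apoc3 did. The call of Fabp1 was lost in 16 of the 23 fits without 1 library, and that of Mttp without any 1 of the A100-FMT libraries of set 1. Con-FMT had a higher level of Apob alone (1.04, adjusted p = 0.0269), where 26.9% of all genes passed. That call was lost with the column of the description (0.29, adjusted p = 0.324), with the adjustment for GC content and length (0.53, adjusted p = 0.0774), and without Sa replicate 3, Con-FMT replicate 1 or Con-FMT replicate 3. With only the groups compared in the fit, and with array quality weights, 0 of the 10 genes passed in any of these 3 comparisons. The shares of all genes that passed in these alternative fits are not given. Without Sa replicate 1, 8 genes were higher in A10-FMT and 5 in A100-FMT, while in Con-FMT 5 were higher and 1, Dgat1, was lower (-0.35, adjusted p = 0.016).

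**Figure D4:**
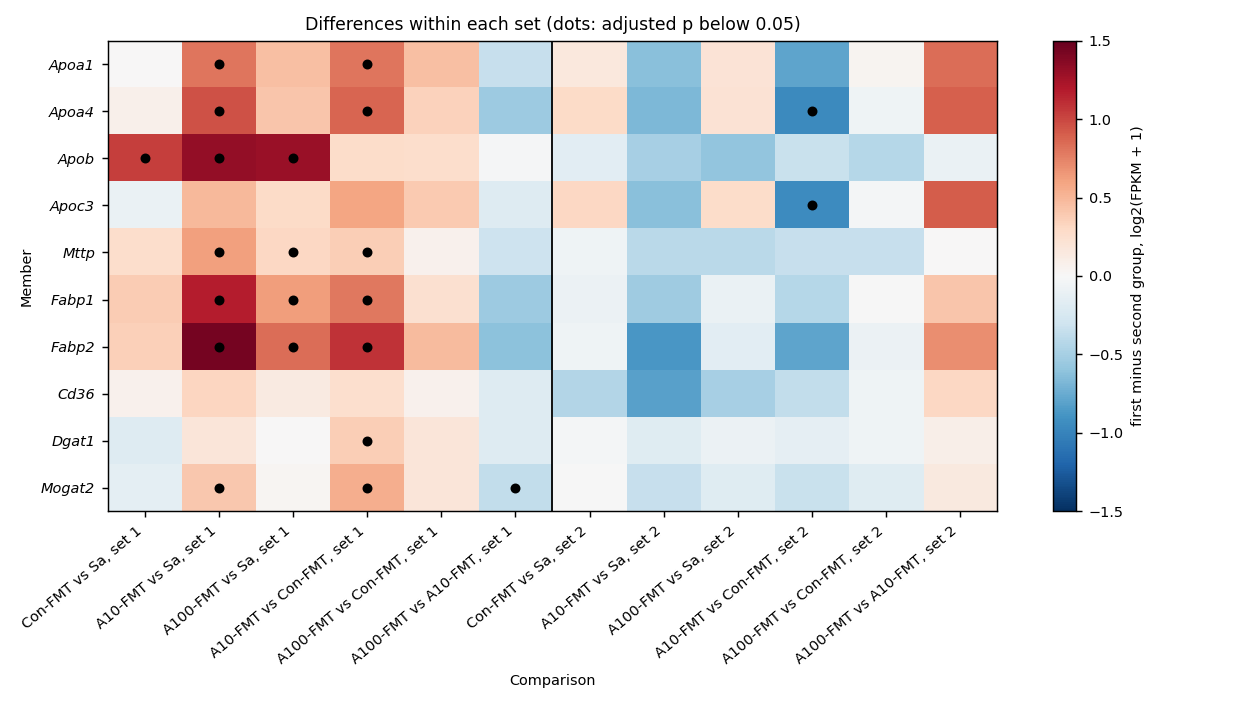
Log2 difference (color) of each of the 10 genes in the 6 comparisons within set 1 and within set 2, with a dot where the adjusted p of limma is under 0.05. Set 1 has 20 dots, all but Mogat2 in A100-FMT vs. A10-FMT in red cells, and set 2 has 2, Apoa4 and Apoc3 for A10-FMT vs. Con-FMT.

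Against Sa of set 2, which had 3 libraries, the 10 genes differed without passing the test. In A10-FMT all 10 genes were below every Sa library, where 11.4% of all genes were, with a median difference of -0.58. Fabp2 was at 1337, 1753 and 1709 FPKM in Sa (-0.87, adjusted p = 0.0562), and Mogat2 at 225, 236 and 229 FPKM (-0.34, adjusted p = 0.0537). In limma 0 of the 10 passed, where 0.423% of all genes did, and 8 were under 0.05 unadjusted, against 14.4% of all genes. Under the alternatives 0 to 10 passed, all lower in A10-FMT, and the shares of all genes that passed in those fits are not given. In A100-FMT 0 of the 10 passed in limma, where 0.0353% of all genes did, and 4 had an unadjusted p under 0.05, against 14.2%. Below every Sa library were 4 of the 10 (Apob, Mttp, Cd36 and Mogat2), where 10.1% of all genes were. Apob was at 92.8, 85.6 and 79.1 FPKM in A100-FMT against 127, 131 and 130.2 FPKM in Sa (-0.59 ± 0.26, adjusted p = 0.319), and Mttp differed by -0.41 ± 0.10 (adjusted p = 0.108). In Con-FMT 0 of the 10 passed in limma, where 0.0353% of all genes did, and 0 had an unadjusted p under 0.05, against 5.74%.

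Averaged over both sets, 0 of the 10 genes passed for any FMT group in limma. Of all genes 0.75%, 0.132% and 0.891% passed for Con-FMT, A10-FMT and A100-FMT. At an unadjusted p under 0.05 there were 1, 0 and 3 of the 10, against 23.5%, 19.9% and 26.3% of all genes. Without Sa replicate 1 of set 1, which leaves the library with the GC trend as the only Sa library of its set, 5, 4 and 3 of the 10 genes passed, all higher after FMT except Dgat1 in Con-FMT. For A10-FMT vs. Sa, the difference was lower in set 2 than in set 1 for 9 of the 10 genes, where 28.4% of all genes passed. The values ran from -0.74 for Mogat2 to -2.31 for Fabp2, and Dgat1 did not pass (-0.36, adjusted p = 0.0623). For A100-FMT vs. Sa, 3 of the 10 passed, where 26.8% of all genes did. They were Apob (-1.89 ± 0.40, adjusted p = 0.00822), Mttp (-0.72 ± 0.14, adjusted p = 0.00741) and Fabp2 (-1.0 ± 0.29, adjusted p = 0.0217). Without Sa replicate 3 of set 1 the calls were Apob and Mttp, and with only the groups compared or with array quality weights there were 0. For A10-FMT vs. Sa, 0 passed with array quality weights, and Cd36 was lost without A10-FMT replicate 2 or Sa replicate 3 of set 2, or without Sa replicate 3 of set 1. For Con-FMT vs. Sa, 0 of the 10 passed in limma, where 0.00882% of all genes did, and 2 had an unadjusted p under 0.05, a smaller share than the 34.3% of all genes. Without Sa replicate 1 of set 1, which leaves 1 Sa library in that set, more of the 10 passed. The shares of all genes that passed in the alternative fits named here are not given. These interactions share the Sa libraries of set 1, and those of A10-FMT share its libraries with the comparison against Con-FMT.

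Apob followed some of the other genes less closely over the libraries. The level of Mttp was 3.49 to 4.9 times that of Apob in 22 libraries and 11.7 times in Sa replicate 3 of set 1. Over the 23 libraries the log2 levels of Apoa4 and Apoa1 had a Pearson's r of 0.969, those of Apoc3 and Apoa1 of 0.935, and those of Fabp2 and Fabp1 of 0.924. The lowest were 0.018 for Dgat1 and Apob and 0.181 for Apoc3 and Apob. With Mttp (0.735), Fabp2 (0.685) and Fabp1 (0.665) Apob had its highest r. The median r with the other 9 genes was highest for Apoa4 (0.834) and lowest for Apob (0.374), with Cd36 at 0.503. These correlations describe libraries that share groups and, for Apob, the library with the GC trend, and they carry no test. The level of Fabp2 relative to Fabp1 ran from a mean of 1.11 ± 0.145 (SD, n = 3) in A10-FMT of set 2 to 1.46 ± 0.324 in A10-FMT of set 1, ranges that overlapped.

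Other genes of fat handling were taken from 7 lists with 94 genes besides the 10, of which 76 were tested. The lists, like the 10 genes, were chosen with earlier results of these data known, so the shares below are a description. In A10-FMT vs. Con-FMT of set 1, 24 of the 76 rose (31.6%) and 6 fell (7.89%), against 5.2% and 11.5% of all genes tested. In set 2, 0 rose and 2 fell (2.63%), against 0.37% of all genes that fell. For 45 of the 76 (59.2%) the difference was above 0 in set 1 and below 0 in set 2, as it was for 10 of 10 of the genes above and for 2621 of all 11337 genes (23.1%). The mirror pattern held for 19 of the 76 and for 5975 of all genes. Such shares may depend on scaling. Median differences of all genes were -0.08 in set 1 and 0.05 in set 2, and -0.01 and 0.02 with trimmed-mean scaling. The interaction passed for 37 of the 76 (48.7%), against 20.8% of all genes, with 30 lower and 7 higher in set 2. The genes named are the 2 with the highest mean FPKM of each list.

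Of 6 tested genes of lipid uptake and sterol transport, 2 rose in set 1 and 1 fell in set 2. Slc27a4, a fatty acid transport protein, did both (0.68, adjusted p = 0.000563 in set 1, and -0.50, adjusted p = 0.0315 in set 2). Npc1l1, the cholesterol transporter, had 0.12 (adjusted p = 0.377) and -0.34, with an interaction of -0.46 (adjusted p = 0.0145). Of 20 genes of fatty acid activation and triglyceride resynthesis, 8 rose and 2 fell (Gpam and Soat1) in set 1. Acsl5, an acyl-CoA synthetase, rose by 0.61 (adjusted p = 0.00122) and had an interaction of -0.90, while Plpp2, a lipid phosphatase, had 0.24 (adjusted p = 0.0529). Of 15 genes of chylomicron assembly and secretion, 7 rose and 1 fell (Plagl2) in set 1, and 1 fell in set 2. The latter was Apoc2, the activator of lipoprotein lipase, which rose in set 1 (1.08, adjusted p = 0.00291) and fell in set 2 (-1.03, adjusted p = 0.0399). Prap1, a lipid-binding protein that helps MTP, rose by 0.75 (adjusted p = 0.00124), and P4hb, the partner subunit of MTP, by 0.24 (adjusted p = 0.0115). Sar1b and Surf4, which serve the export of lipoproteins from the endoplasmic reticulum, and Tm6sf2 rose too.

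Of 8 genes of cytosolic lipid droplets and lipases, 3 rose in set 1, among them Cideb (0.52, adjusted p = 0.00137) and Plin3, a droplet coat protein (0.44, adjusted p = 0.00124). Of 14 regulators of enterocyte lipid genes, 2 rose (Creb3l3 and Nr1h3) and 2 fell, Hnf4a by -0.15 (adjusted p = 0.0301) and Klf5, a factor of crypt cells, by -0.50 (adjusted p = 0.00159). These were 14.3% in each direction, against 5.2% and 11.5% of all genes, whose median difference was -0.08. With trimmed-mean scaling 4 regulators rose and 1 fell, and with the adjustment for GC content and length 3 rose and 1 fell. Of 12 targets of PPAR alpha in fatty acid oxidation, 2 rose (Crat and Slc25a20) and 0 fell, against 5.2% and 11.5% of all genes. In either direction 16.7% of this list passed in the fit reported, the same share as among all genes. With trimmed-mean scaling 5 of the 12 rose and 0 fell, where 825 of the 11337 genes tested rose and 667 fell. With the adjustment for GC content and length 4 rose and 0 fell. The most abundant, Hadha (0.13, adjusted p = 0.0623) and Hadhb (0.07, adjusted p = 0.412), did not pass. Of the pancreatic lipid digestion enzymes 1 of 6 was tested, Pnliprp2, which fell in set 1 (-0.82, adjusted p = 0.0334, not called with trimmed-mean or quantile scaling) and had an interaction of 1.31 (adjusted p = 0.0163). In set 2, 0 genes of the lists of resynthesis, droplets, regulators and PPAR alpha targets passed in limma, and 9 of 20, 4 of 8, 1 of 14 and 3 of 12 had an unadjusted p under 0.05, against 11.9% of all genes.

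**Figure D5:**
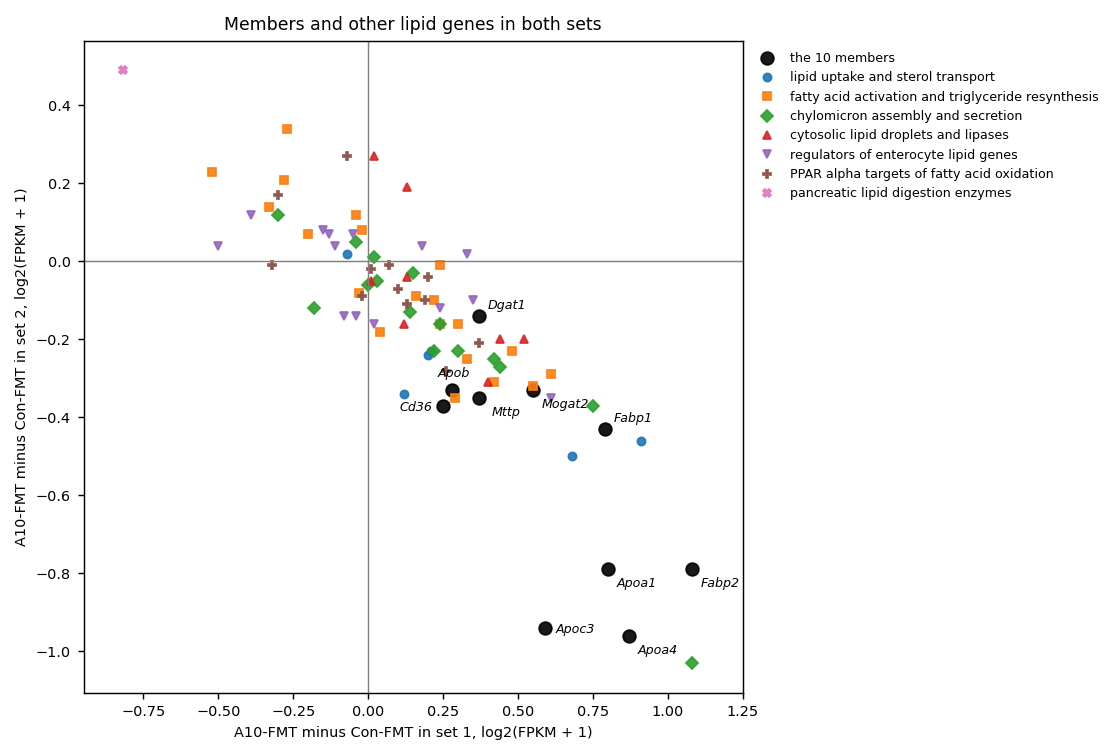
Log2 difference of A10-FMT and Con-FMT in set 1 (x axis) and in set 2 (y axis) for the 10 genes and the 76 other genes of fat handling, colored by list. The 10 genes lie in the field that is above 0 in set 1 and below 0 in set 2, as do 45 of the 76.

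The genes most like the 10 in their course over the 23 libraries were sought by correlating the mean of the 10 scaled log2 levels with every other gene tested. The highest Pearson's r were those of Pdzk1, a scaffold of brush-border transporters (0.978), Sec14l2, a lipid-binding protein (0.958), Ggt1, a gamma-glutamyl transferase (0.958), Treh, the brush-border trehalase (0.954), and Prr15 (0.947). The lowest were those of Uck2, a uridine-cytidine kinase (-0.932), Actl6a, a subunit of chromatin remodelers (-0.930), and Irak1, a kinase of innate signaling (-0.916). Treh is also 1 of the 12 enterocyte markers. Pdzk1 ran from 25.3 ± 4.76 FPKM in A10-FMT of set 2 to 64.8 ± 12 FPKM in A10-FMT of set 1 (SD, n = 3). Pdzk1, Sec14l2, Ggt1 and Treh were also among the 5 highest with the column of the description and in the 18 FMT libraries alone, where Prr15 was number 13 and number 26.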

How the data were processed

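Total RNA of mouse small intestine was isolated by the authors with TRIzol and sequenced on an Illumina HiSeq. The deposited values are FPKM per gene, per the file headers, with 2 decimals. The methods speak of RPKM and DEGseq. Reads were placed on mm10, per the submitters' processing notes, and the aligner and counter are not given in the sources used here. There are 19215 rows in 24 columns, and 17842 rows have NCBI Gene numbers. Symbols were found for 17725 of these. No columns were identical. The title and description of a Sa library of set 1 name different columns, and no fit holds both.

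A pseudocount of 1 was added and log2 taken. Tests covered the 11337 genes whose mean over libraries reached 1 FPKM, leaving out 7878. A model with 1 mean per group (15 residual degrees of freedom) was fitted with limma 3.58.1 (eBayes with trend), with the Benjamini-Hochberg adjustment over all genes tested and a threshold of 0.05. Fold changes are on the log2(FPKM + 1) scale and understate those of low genes such as Cd36. Differences are the first group named minus the second, and interactions are set 2 minus set 1. The fit ran in R 4.3.3 and was tested on simulated data. Descriptions were made in Python 3.11.15 with pandas 2.3.3, scipy 1.17.1 and numpy 2.4.6, and plots with matplotlib 3.10.9.

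The members and the gene lists were chosen with earlier results of these data known. Named genes are the 10 members, the 2 other genes of each pathway list with the highest mean FPKM, and the 5 highest and 3 lowest by likeness. Names outside this rule, such as Apoc2 or the marker genes, explain a count or the tissue and were chosen after their values were seen. Alternatives were a pseudocount of 0.1, no filter, a minimum mean of 5 FPKM, scaling by quantiles or by a trimmed mean, adjustment for GC content and length (GENCODE M21, known for 10527 genes, 92.86%), only the groups compared, a replicate block, array quality weights, the column of the description and leaving out each library. The adjustment for GC content with the column of the description was added after the data were seen.

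Read numbers were not used, so the depth is unknown. From the steps between the lowest values of 34 genes, relative depth was estimated at 0.793 to 1.04, with 2 genes at the fewest in a library. The criteria for these genes were changed 2 times after their outcome was seen.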

Additional observations from a re-analysis of the deposited data

Results flagged for a closer look

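For 25 results a difference between groups was itself different between the sets, by the interaction test of limma (set 2 minus set 1, adjusted p under 0.05, log2 scale). For A10-FMT vs. Con-FMT 20.8% of all genes passed. Those of the 10 were Apoa1 (-1.60), Apoa4 (-1.84), Apoc3 (-1.53), Mttp (-0.71), Fabp1 (-1.23), Fabp2 (-1.88), Dgat1 (-0.52) and Mogat2 (-0.89). These 8 use no Sa library, so they do not rest on the library with the GC trend, except through the shared estimate of the spread.

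For A10-FMT vs. Sa they were Apoa1 (-1.43), Apoa4 (-1.63), Apob (-1.81), Apoc3 (-1.12), Mttp (-1.02), Fabp1 (-1.71), Fabp2 (-2.31), Cd36 (-1.13) and Mogat2 (-0.74), and for A100-FMT vs. Sa Apob (-1.89), Mttp (-0.72) and Fabp2 (-1.0). For A100-FMT vs. A10-FMT, where 3.5% of all genes passed, they were Apoa1 (1.19), Apoa4 (1.43), Apoc3 (1.10), Fabp2 (1.31) and Mogat2 (0.52). The comparisons with Sa share its 2 libraries of set 1, and those with A10-FMT share its libraries, so the groups of values are not independent of each other. What distinguishes the sets is not given, and set and any difference in handling between them cannot be told apart.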

How the results depend on the processing

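The 47 calls of a member in a comparison gave 1598 values under the alternatives, of which 1456 had the same direction and passed, 142 had the same direction without passing and 0 were reversed. Calls of the 10 genes were summed over the comparisons of a kind. FMT vs. Sa within set 1 had 12 calls, and 0 with only the groups compared and 0 with array quality weights. FMT vs. FMT within set 1 had 8, and 13 with array quality weights, 13 with the column of the description and 13 with that column and the GC adjustment. FMT vs. Sa within set 2 had 0, and 1 with a pseudocount of 0.1, 2 with at least 5 FPKM, 2 with quantile normalization, 2 with trimmed-mean scaling, 7 with the GC adjustment, 4 with only the groups compared, 13 with array quality weights, 7 with the column of the description and 10 with both. FMT vs. FMT within set 2 had 2, and 0 without a filter, 6 with the GC adjustment, 0 with only the groups compared, 0 with the replicate block, 14 with array quality weights, 6 with the column of the description and 8 with both. The cause was not tested. Shares of all genes are not given for these fits, so the counts cannot show whether calls moved over the whole table.

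Without 1 library, the counts were 4 to 19, 6 to 14, 0 to 8 and 0 to 8 in the same order, 0 to 12 over both sets (0 in the fit reported) and 21 to 35 for the difference between the sets (25). Same-numbered libraries did not pair. Of 33 pairs 10 had deviations correlated over 0.1 (r from -0.352 to 0.319). With the replicate block the counts were 11 for FMT vs. Sa and 9 for FMT vs. FMT within set 1, 0 and 0 within set 2, 0 over both sets and 26 for the difference between the sets. Levels near those of Cd36 are limited by a depth that is not known.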
